A study of Mus musculus with 12 samples.

Results

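The 9 genes described here make, store or break down catecholamines and acetylcholine: Th, Ddc, Dbh, Gch1, Slc18a2, Maoa, Maob, Chat and Ache. They were chosen by name for their place in these pathways, with earlier results of these data known. Each was matched by symbol among the 25128 genes and unnamed targets on a mouse expression array. RNA was taken from 3 mouse cell lines grown without any treatment in DMEM with fetal bovine serum. AtT20 is a line from a pituitary tumour of corticotrophs, BV2 is a microglial line immortalised with oncogenes carried by a retrovirus, and N18 is a neuroblastoma line. Each line was grown on 4 plates to confluence, and each plate gave 1 extraction and 1 array, so that the spread between plates is that of cultures of 1 line and not of animals or clones. Per the methods, the culture of BV2 was meant to favour a resting state, and their state was not measured here. They also report genomic DNA in N18 RNA prepared for qPCR, and whether the RNA on the arrays held any was not tested.

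Catecholamines are made from tyrosine. Tyrosine hydroxylase (Th) carries out the rate-limiting step to L-DOPA with tetrahydrobiopterin as its cofactor, and GTP cyclohydrolase (Gch1) starts the synthesis of that cofactor. Aromatic amino acid decarboxylase (Ddc) turns L-DOPA into dopamine, the vesicular monoamine transporter (Slc18a2) packs it into vesicles, and dopamine beta-hydroxylase (Dbh) converts it there into noradrenaline. The monoamine oxidases (Maoa and Maob) of the outer mitochondrial membrane break these amines down. Acetylcholine is made by choline acetyltransferase (Chat) and is split by acetylcholinesterase (Ache). Neuroblastoma arises from the sympathetic lineage, whose neurons are noradrenergic or, in a minority, cholinergic, and neuroblastoma lines differ in which of these enzymes they make.

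The sequences just upstream of 4 of these genes are shown: the initial enzyme of the pathway and 3 genes with more signal in N18 than in BV2 plates. Maoa, also higher in N18 but below the threshold in both lines, is not shown. No result below rests on these sequences. They are the 250 bases before each start site, from RefSeq on GRCm38.p6, written 5′ to 3′ on the strand of the gene. Capitals mark the core of the cyclic AMP response element, the GC box and the TATA box, each read on either strand.
Th, chr7:142899996-142900245, minus strand: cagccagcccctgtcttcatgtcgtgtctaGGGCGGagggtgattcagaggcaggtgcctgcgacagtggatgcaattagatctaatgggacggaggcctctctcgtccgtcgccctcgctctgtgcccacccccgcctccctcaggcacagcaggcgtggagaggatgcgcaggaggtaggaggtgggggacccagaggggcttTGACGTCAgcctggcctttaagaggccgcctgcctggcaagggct
Dbh, chr2:27165257-27165506, plus strand: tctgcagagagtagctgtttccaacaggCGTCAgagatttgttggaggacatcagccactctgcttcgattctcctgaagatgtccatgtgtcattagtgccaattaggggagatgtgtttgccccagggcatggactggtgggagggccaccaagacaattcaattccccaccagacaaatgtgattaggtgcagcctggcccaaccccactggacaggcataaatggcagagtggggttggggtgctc
Gch1, chr14:47189414-47189663, minus strand: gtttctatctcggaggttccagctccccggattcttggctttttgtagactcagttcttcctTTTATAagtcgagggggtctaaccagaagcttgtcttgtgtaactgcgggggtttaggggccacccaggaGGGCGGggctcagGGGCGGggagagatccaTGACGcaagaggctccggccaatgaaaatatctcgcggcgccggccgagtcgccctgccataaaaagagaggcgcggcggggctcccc
Ache, chr5:137288004-137288253, plus strand: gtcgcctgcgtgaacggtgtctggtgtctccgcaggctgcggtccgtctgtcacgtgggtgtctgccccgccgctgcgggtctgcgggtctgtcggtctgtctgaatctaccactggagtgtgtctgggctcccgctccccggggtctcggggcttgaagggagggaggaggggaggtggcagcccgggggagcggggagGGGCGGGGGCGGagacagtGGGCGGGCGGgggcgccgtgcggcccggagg

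The core of the cyclic AMP response element was searched as TGACG, and the Th window holds it 45 and 42 bases before the start, on opposite strands and overlapping, as an intact palindromic element, and a GC box, searched as GGGCGG, at 220. In Dbh the same core stands at 222, and in Gch1 at 88, beside GC boxes at 118 and 105 and a TATA box (searched as TATAAA) at 188. In Ache 4 GC boxes stood within the last 50 bases, at 50, 44, 31 and 27, the last pair overlapping. Of 32851 mouse promoter windows of this length, 17.8% hold the cyclic AMP core, 32.7% a GC box and 12.4% a TATA box on either strand. The homeodomain core ATTA, found in 54.9% of all windows, stood at 157, 147 and 65 in Dbh and at 175 and 167 in Th. The E-box letters CANNTG, present in 66.2% of windows, were at 165 and 73 in Dbh and at 199 in both Th and Ache. Promoter windows were found for 8 of the 9 genes. These matches describe the letters only, and no binding was measured.

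A level is given here as the log2 signal of a gene, averaged over its 3 probes, above the mean of 10 seminal protein genes on the same plate. Seminal proteins are not expected in these lines, and following the study a gene was called above the threshold where its level, averaged over the 4 plates, was larger than 2 SD of those genes (the SD taken on each plate and averaged). That threshold was 0.37 ± 0.11 for AtT20, 0.56 ± 0.15 for BV2 and 0.74 ± 0.10 for N18 (SD, n = 4). Levels of different genes come from different probes and are not set against each other.

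The AtT20 plates stood apart from the rest. Their probes spread over an interquartile range of 0.378 to 0.782 on the log2 scale, against 1.28 to 1.73 for BV2 and 1.91 to 2.21 for N18, and the correlation between plates was 0.898 to 0.950, against 0.964 to 0.986 and 0.976 to 0.988. Only 3 of 11 corticotroph markers were above the threshold on AtT20 plates, with a mean level of the list of 0.272 to 0.604 per plate. Pomc (0.29), Tbx19 (0.02) and Pcsk1 (0.14), which define these cells, were below it, while 5 of 8 astrocyte and fibroblast markers and 6 of 12 neuroblastoma markers (list mean 0.253 to 0.835) were above. On BV2 plates 8 of 10 microglial markers were above the threshold (list mean 2.94 to 3.57), with Aif1 (0.30) and Cx3cr1 (0.40) below. N18 plates had 11 of 12 neuroblastoma markers above it (3.10 to 3.48), and also 6 of 11 corticotroph markers (1.37 to 1.57). Differences from the plates labelled AtT20 are therefore given under 3 scalings, and N18 against BV2 is also given from those 8 arrays alone.

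By this rule 3 of the 9 genes were above the threshold on AtT20 plates (Th, Chat and Ache), where 35.0% of all genes and targets were. On BV2 plates 4 were (Th, Dbh, Chat and Ache), against 53.3% of all. On N18 plates 5 were, namely these and Gch1, against 55.4% of all. Ddc, Maoa, Maob and Slc18a2 were below the threshold in every line. The shares of the 9 genes lie near or below those of all genes. In RNA from a whole plate, fewer cells with a message and less message per cell cannot be told apart.

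**Figure D1:**
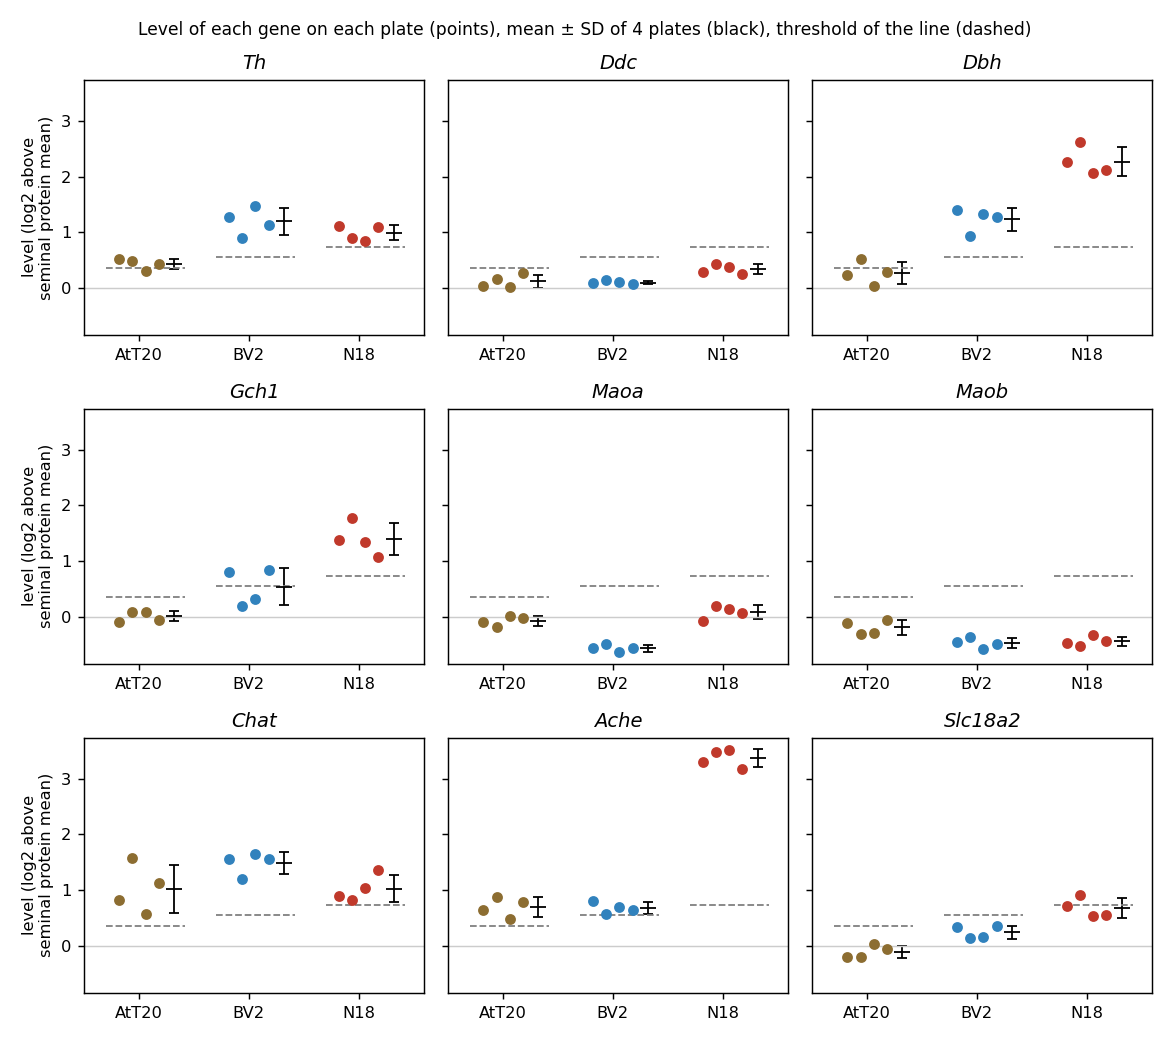
Level of each of the 9 genes on each plate, as log2 above the mean of the seminal protein genes, with points for the 4 plates of a line in order of plate number, the mean ± SD in black and the threshold of the line dashed. The N18 plates of Ache (3.17 to 3.51) and Dbh (2.06 to 2.63) lie above all plates of the other lines, and Maoa and Maob lie below the threshold everywhere. Plates did not overlap for 50.7% of all genes between N18 and BV2 and 70.3% between N18 and AtT20.

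Th, the rate-limiting enzyme, was above the threshold in all 3 lines. Its levels on plates 1 to 4 were 0.51, 0.49, 0.30 and 0.43 in AtT20. In BV2 they were 1.27, 0.91, 1.48 and 1.14, and in N18 1.12, 0.91, 0.85 and 1.10. On this scale the BV2 and N18 plates overlapped and both stood above every AtT20 plate. The order was BV2 (1.20 ± 0.24), N18 (0.99 ± 0.13) and AtT20 (0.43 ± 0.10; SD, n = 4 each), the leading pair within their spread. Between N18 and AtT20 70.3% of all genes had plates without overlap, and between BV2 and AtT20 58.0%. After the quantile normalization described below, the AtT20 plates of Th (11.2 to 11.58) stood above every N18 plate (10.54 to 10.7). They overlapped there with the BV2 plates (10.97 to 11.43). In AtT20 the margin over the threshold was only 0.07. With 3 SD in place of 2, Th was no longer above the threshold in AtT20 and N18, and with olfactory receptor genes as controls it was so in no line.

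Ddc, which makes dopamine from L-DOPA, stayed near the seminal proteins. Its levels were 0.05, 0.16, 0.01 and 0.28 on AtT20 plates and 0.09, 0.14, 0.10 and 0.07 on BV2 plates. N18 plates read 0.30, 0.44, 0.38 and 0.25, each above all BV2 plates but overlapping with AtT20. Between N18 and BV2 50.7% of all genes had plates without overlap. By the mean of its 3 probes no plate of any line exceeded its own threshold, so these differences lie within the range of genes called not above background.

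Dbh, the enzyme that makes noradrenaline, had levels that did not overlap between the 3 lines. Plates 1 to 4 read 0.24, 0.52, 0.05 and 0.29 in AtT20, where the mean of 0.27 ± 0.19 was below the threshold and 1 plate above its own. They read 1.41, 0.93, 1.33 and 1.27 in BV2 (1.24 ± 0.21). In N18 they read 2.26, 2.63, 2.06 and 2.12 (2.27 ± 0.25; SD, n = 4). On this scale every N18 plate was above every BV2 plate, and every BV2 plate above every AtT20 plate. Plates did not overlap for 50.7% of all genes between N18 and BV2 and 70.3% between N18 and AtT20. Between BV2 and AtT20 the share was 58.0%. After the quantile normalization described below, the BV2 plates of Dbh (11.06 to 11.30) overlapped with those of AtT20 (10.81 to 11.21). The call in N18 held under all 6 alternatives of the threshold rule and that in BV2 under 5, the exception being olfactory receptor genes as controls.

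Gch1, which supplies the cofactor of tyrosine hydroxylase, was above the threshold in N18 only. Its N18 levels were 1.38, 1.78, 1.35 and 1.08 (1.40 ± 0.29). On BV2 plates it read 0.81, 0.20, 0.32 and 0.84 (0.54 ± 0.33), with 2 plates above their own threshold and the mean 0.02 below that of the line. Leaving out BV2 plate 2 or plate 3 put the mean above it. AtT20 plates read -0.08, 0.10, 0.10 and -0.05, the level of the seminal proteins. The 3 lines did not overlap on this scale, where 50.7% to 70.3% of all genes did not, depending on the pair. After quantile normalization the plates of every pair overlapped. With olfactory receptor genes as controls Gch1 was below the threshold in N18 too.

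Slc18a2, the vesicular monoamine transporter, fell just short of the threshold in N18. Levels there were 0.71, 0.92, 0.54 and 0.56 (0.68 ± 0.18, 0.06 below the threshold), with 1 plate above its own. BV2 plates read 0.34, 0.14, 0.15 and 0.36, and AtT20 plates -0.19, -0.19, 0.03 and -0.06. The order N18, BV2, AtT20 was again free of overlap, a trait shared by 50.7% to 70.3% of all genes, depending on the pair. All of it lies in the range of genes not called. After quantile normalization the AtT20 plates of Slc18a2 (9.82 to 10.82) overlapped with those of both other lines.

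Neither monoamine oxidase gave a signal above background. Maoa read -0.09, -0.18, 0.03 and -0.01 in AtT20. It read -0.55, -0.48, -0.63 and -0.56 in BV2, below all plates of the other lines, and -0.07, 0.21, 0.15 and 0.08 in N18. Such a lack of overlap was shared by 50.7% of all genes between N18 and BV2 and 58.0% between BV2 and AtT20. For Maob the levels were -0.11, -0.30, -0.29 and -0.05 in AtT20, -0.45, -0.36, -0.57 and -0.48 in BV2, and -0.46, -0.51, -0.33 and -0.43 in N18. Values below 0 mean that the probes were dimmer than the average seminal protein gene, so that differences between lines for this pair of genes are differences among probes at background.

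Chat, which makes acetylcholine, was above the threshold in every line by the mean of its probes. AtT20 plates read 0.82, 1.58, 0.57 and 1.13 (1.02 ± 0.43), BV2 plates 1.56, 1.20, 1.64 and 1.57 (1.49 ± 0.20) and N18 plates 0.90, 0.82, 1.04 and 1.36 (1.03 ± 0.24). The plates of all 3 lines overlapped, and no order beyond their spread can be read on this scale. Of the 3 probes for Chat, numbered as in the deposited probe names, only the second carried this signal. It stood at 2.00, 2.75 and 2.23 in AtT20, BV2 and N18, while the other pair lay between -0.66 and 0.14. Summarised by the median probe instead, Chat was below the threshold in all 3 lines.

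Ache, which ends the action of acetylcholine by splitting it, had the clearest line difference of the 9 genes. Its N18 levels were 3.30, 3.48, 3.51 and 3.17 (3.37 ± 0.16). BV2 plates read 0.81, 0.57, 0.70 and 0.64 (0.68 ± 0.10), with 3 plates above their own threshold, and AtT20 plates read 0.65, 0.87, 0.48 and 0.79 (0.70 ± 0.17). All N18 plates were above all others, and BV2 and AtT20 overlapped. Without regard to direction, N18 plates were free of overlap with BV2 for 50.7% of all genes and with AtT20 for 70.3%. The call in N18 held under all 6 alternatives of the rule, whereas that in BV2 held under 1 of 6 and that in AtT20 under 4 of 6.

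**Figure D2:**
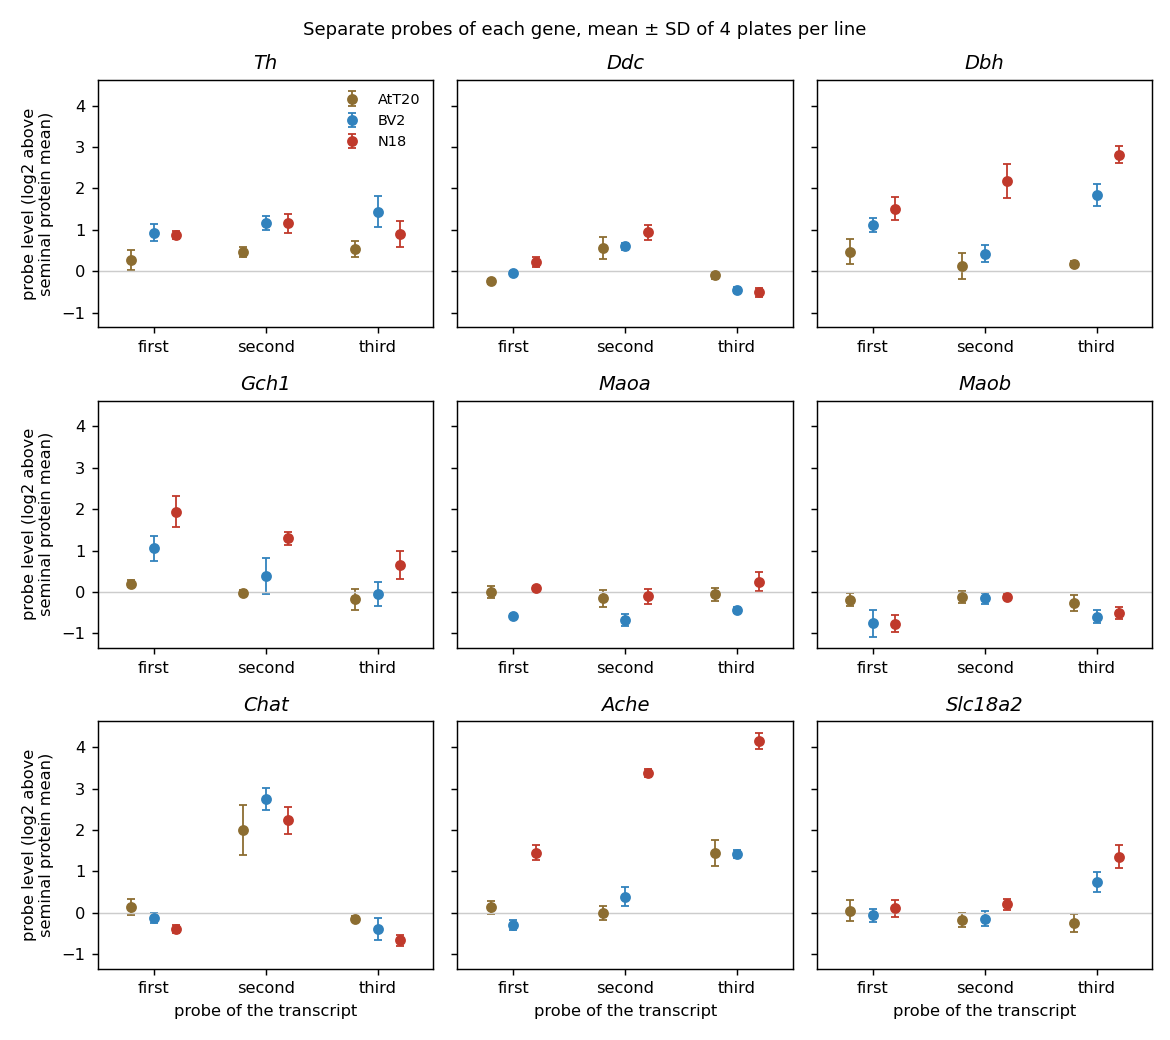
Level of each of the 3 probes of each gene (log2 above the seminal protein mean, mean ± SD of 4 plates) in AtT20, BV2 and N18, with probes numbered as in the deposited names. All 3 Ache probes are highest in N18, the signal of Chat comes from the second probe alone, and that of Slc18a2 in N18 comes from the third probe.

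Taken probe by probe, 6 of the 27 probes of these genes were above the threshold of the line in AtT20, 10 in BV2 and 14 in N18, where 26.7%, 47.9% and 50.7% of all 72000 probes were. In N18 all 3 probes were above it for Th, Dbh and Ache, and 2 for Gch1. For Slc18a2 only the third probe was, at 1.36 ± 0.27 in N18 and 0.74 ± 0.24 in BV2, while its other probes read 0.11 and 0.21 in N18. Similarly the second Ddc probe alone was above the threshold, in each line (0.57, 0.60 and 0.94 in AtT20, BV2 and N18). The 3 Ache probes in N18 read 1.46 ± 0.18, 3.37 ± 0.10 and 4.16 ± 0.20, against -0.30, 0.40 and 1.41 in BV2 (SD, n = 4). In BV2 and AtT20 the third Ache probe was the only one above the threshold. In order of their numbers the Dbh probes read 1.11, 0.42 and 1.83 in BV2 and 1.51, 2.18 and 2.81 in N18.

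The lines were compared after quantile normalization of the 12 arrays with limma, and a gene was called at a Benjamini-Hochberg adjusted p under 0.05 over all 25128 genes and targets. Between N18 and BV2, 40.9% of all were called, 19.0% higher and 21.9% lower in N18. Of the 9 genes 6 were called, with Ache, Maoa, Gch1 and Dbh higher and Chat and Th lower in N18, and Ddc, Maob and Slc18a2 not called. The median difference of all genes was -0.06, and that of the 9 genes 0.15. Quantile normalization gives all arrays the same distribution, and relative to the seminal proteins the median of all genes moved to 0.18, with 74.7% of the called genes higher in N18 against 46.5% in the main comparison. On that scale 7 of the 9 genes were called, against 51.9% of all. Without normalization the median was 0.15, with 80.2% of the called genes higher. A difference of at least 1 beside the call was met by 1 of the 9, Ache, and by 9.83% of all.

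Ache was 1.92 higher in N18 than in BV2 on the log2 scale (SE 0.131, 95% interval 1.64 to 2.19, limma adjusted p = 4.25e-09), a 3.78-fold difference. Since 2 of its 3 probes were below the threshold in BV2, this value may understate the difference. It was 2.69 on the seminal protein scale (adjusted p = 2.59e-11) and 2.18 from the 8 arrays of these lines alone (adjusted p = 1.12e-09). Fitted by themselves, its probes differed by 1.17, 2.12 and 2.00, with adjusted p of 0.000137, 2.58e-07 and 6.11e-08, where 27.6% of all probes were called. No other of the 9 genes had all of its probes called.

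Dbh was 0.39 higher in N18 (SE 0.110, adjusted p = 0.00946), and 1.03 higher on the seminal protein scale (adjusted p = 2.69e-05). On the quantile normalised scale N18 and BV2 plates did not overlap for Dbh, as for 55.4% of all genes. Of its probes only the second was called (1.05, adjusted p = 0.00698), and that probe was below the threshold in BV2, while the first and the third differed by -0.06 (adjusted p = 0.843) and 0.28 (adjusted p = 0.187). Gch1 was 0.39 higher (SE 0.145, adjusted p = 0.0398) and 0.86 higher relative to the seminal proteins (adjusted p = 8.14e-05). On the quantile normalised scale its plates overlapped, and the call was lost without N18 plate 1, 2 or 3 or BV2 plate 2 or 3, with adjusted p from 0.0682 to 0.129. Set against the median of all genes, Ache stood 1.98, Dbh 0.45 and Gch1 0.45 above it, and 2.51, 0.85 and 0.68 relative to the seminal proteins.

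Th was 0.48 lower in N18 than in BV2 (a difference of -0.48, SE 0.125, adjusted p = 0.00507), mostly through the third probe (-0.75, adjusted p = 0.0157). It was not called relative to the seminal proteins (-0.21, adjusted p = 0.198) or without normalization (-0.24, adjusted p = 0.398). Chat differed by -0.80 (SE 0.158, adjusted p = 0.000644), by -1.02 in its second probe (adjusted p = 0.000897) and by -0.22 and -0.23 in the others, which were not called. The median probe gave a difference of -0.26 (adjusted p = 0.319). For Chat the call lay at its limit on the seminal protein scale (-0.46, adjusted p = 0.0496) and was lost on arrays left unnormalised (-0.49, adjusted p = 0.0519). Maoa was 0.49 higher in N18 (SE 0.104, adjusted p = 0.00111), a difference between lines that were both below the threshold.

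Ddc (0.04, 95% interval -0.17 to 0.25, adjusted p = 0.776), Maob (0.01, -0.21 to 0.24, adjusted p = 0.927) and Slc18a2 (0.15, -0.18 to 0.48, adjusted p = 0.470) were not called. The intervals still allow differences of up to 0.25, 0.24 and 0.48. Against the seminal proteins, Ddc (0.24, adjusted p = 0.0163) passed the test and so did Slc18a2 (0.43, adjusted p = 0.000882), and Slc18a2 also did so in the 8 arrays alone (0.20, adjusted p = 0.0398), where 7 of the 9 and 61.9% of all genes were called.

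**Figure D3:**
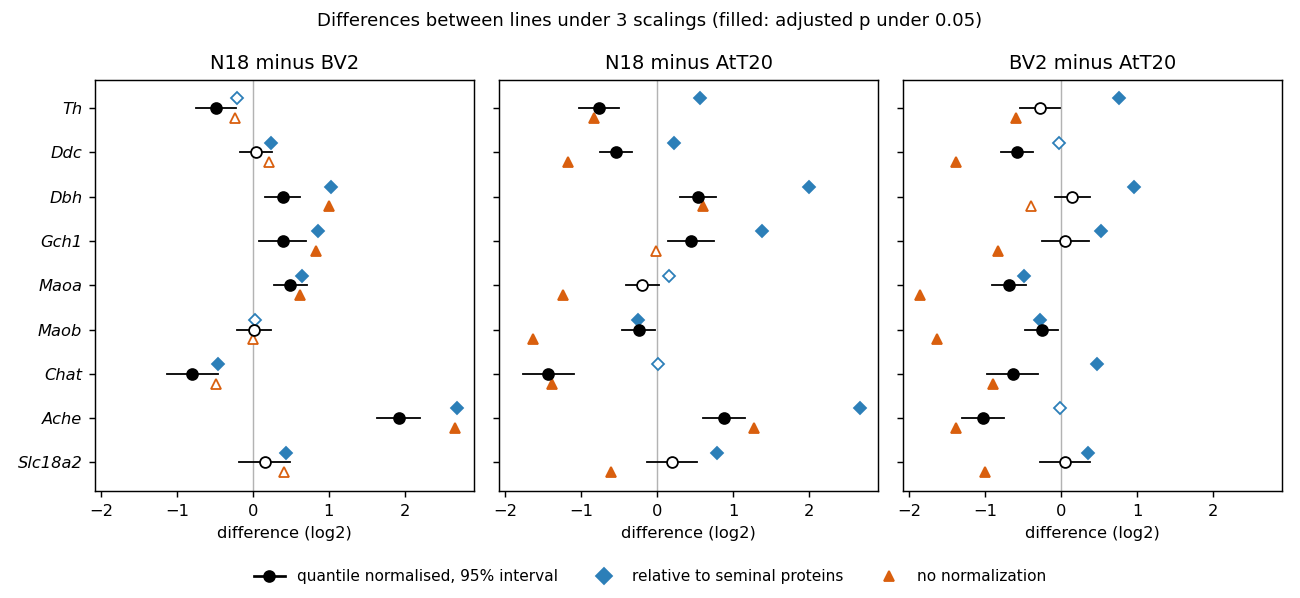
Differences between pairs of lines on the log2 scale for the 9 genes, after quantile normalization (black, with 95% intervals), relative to the seminal protein genes (blue) or not normalised (orange), filled where the adjusted p was under 0.05. For N18 against BV2 the 3 scalings lie on the same side of 0 for each gene, whereas against AtT20 several genes change side.

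Against the AtT20 plates the scaling decided the sign of many differences. The median of all genes for N18 minus AtT20 was -0.25 after quantile normalization, -0.86 without it and 0.54 relative to the seminal proteins, and 76.4% of all genes were called in the main comparison (27.8% higher and 48.6% lower in N18). Dbh, Gch1 and Ache were called higher and Th, Ddc, Maob and Chat lower, 7 of the 9. Relative to the seminal proteins 7 were called as well, against 77.0% of all, 6 of them higher. At a difference of at least 1 only Chat remained called, against 31.4% of all. Plates did not overlap in level above the seminal mean for 70.3% of all genes, and for Th, Dbh, Gch1, Maob, Ache and Slc18a2 among the 9. Ache was 0.88 higher in N18 (SE 0.131, adjusted p = 1.29e-05), 2.67 on the seminal protein scale and 1.28 without normalization. Dbh was 0.54 higher (SE 0.110, adjusted p = 0.000334), 2.00 and 0.60 under the same scalings. Both were called higher in N18 under all 3, and no other of the 9 genes was. Fitted by themselves, their probes did not all go this way. Those of Dbh differed by -0.39, 0.86 and 1.19 (adjusted p = 0.0454, 0.01 and 2.32e-06), the first thus lower in N18. Those of Ache differed by 0.18, 2.20 and 0.61 (adjusted p = 0.401, 3.92e-08 and 0.00362). Gch1 (0.45, adjusted p = 0.0103) was 1.38 on the seminal protein scale and -0.01 without normalization. Without normalization it was not called (adjusted p = 0.958).

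Th showed the dependence in full, at -0.76 after quantile normalization (adjusted p = 3.78e-05), 0.56 against the seminal proteins (adjusted p = 0.000622) and -0.83 without normalization (adjusted p = 6.38e-05). Relative to the median of all genes these were -0.51, 0.02 and 0.02. Chat stood at -1.43 (adjusted p = 4.26e-07), 0.01 (adjusted p = 0.978) and -1.39, and Ddc at -0.54 (adjusted p = 0.000113), 0.22 and -1.17. Maob was -0.24 (adjusted p = 0.0447), a call lost without either AtT20 plate 1 or 4 or any N18 plate. Of the 9 genes, 4 were above the median of all genes under each of the 3 scalings (Dbh, Gch1, Ache and Slc18a2), 2 below it (Ddc and Chat) and 3 on both sides. Relative to the median, the seminal protein scale and no normalization give the same values, since they differ by 1 constant per array. Agreement under the 3 scalings is therefore agreement under 2. A median also has as many genes above it as below.

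BV2 and AtT20 plates, which share their arrays with the comparisons above, differed in 73.6% of all genes, 26.6% higher and 47.0% lower in BV2. The 5 genes called (Ddc, Maoa, Maob, Chat and Ache) were all lower in BV2, and Ache alone differed by at least 1, against 28.3% of all. Relative to the seminal proteins 7 were called, against 68.0% of all, with 5 of them higher in BV2. On that scale Th, Dbh, Gch1, Maoa, Maob and Slc18a2 did not overlap between plates, against 58.0% of all genes without overlap. Ache was -1.03 (SE 0.131, adjusted p = 2.45e-06) after quantile normalization but -0.02 against the seminal proteins (adjusted p = 0.926), where its plates overlapped. Maoa kept its side, at -0.68 (adjusted p = 1.8e-05), -0.49 and -1.85 under the 3 scalings, again among probes at background. Maob did too, at -0.26 (adjusted p = 0.0357), -0.28 and -1.64, and its call after quantile normalization was lost without AtT20 plate 1 or 4 or any BV2 plate. Chat was -0.64 (adjusted p = 0.00173), 0.47 (adjusted p = 0.0365) and -0.89. Th (-0.28, adjusted p = 0.0564) and Dbh (0.15, adjusted p = 0.235) were not called, while relative to the seminal proteins they were 0.77 and 0.96 higher in BV2 (adjusted p = 3.21e-05 and 3.6e-05). The median of all genes was -0.23 in the main comparison, -1.08 without normalization and 0.28 against the seminal proteins.

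Around the 9 genes, 67 of 71 other listed genes of the same pathways and their receptors were measured. Between N18 and BV2, 10 of these were higher in N18, 15 were lower and 42 were not called, so that 37.3% were called beside 40.9% of all genes, with a median difference of -0.12. On the seminal protein scale the balance turned, with 17 higher, 10 lower and a median of 0.06. In the list for catecholamine synthesis and its cofactor, the 9 genes' own members included, 5 of 14 genes were higher and 4 lower in N18, beside 19.0% and 21.9% of all genes, and on the seminal protein scale 7 were higher and 1 lower. In N18 11 of the 14 were above the threshold, 7 in BV2 and 6 in AtT20, where 55.4%, 53.3% and 35.0% of all genes were. Pcbd1, which recycles the cofactor, was 1.91 higher (SE 0.144, adjusted p = 1.44e-08), and Cyb561, which carries electrons into chromaffin granules for Dbh, was 1.82 higher (SE 0.115, adjusted p = 1.52e-09). Gchfr, the regulatory protein of GTP cyclohydrolase, was 0.90 higher (adjusted p = 0.00055). Pts, which acts after Gch1 in the synthesis of the cofactor, was lower by 1.22 (a difference of -1.22, SE 0.107, adjusted p = 9.93e-08). Pcbd2, a relative of Pcbd1, differed by -0.84 (adjusted p = 4.22e-05), but not relative to the seminal proteins (-0.35, adjusted p = 0.155).

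None of the 8 catecholamine transport genes was called between N18 and BV2 by limma, where 40.9% of all genes were. Relative to the seminal proteins 2 were called higher in N18, where 51.9% of all genes were called. The plasma membrane transporters for noradrenaline (Slc6a2) and dopamine (Slc6a3) were below the threshold in every line, at 0.17 or less in Slc6a2 and 0.24 or less in Slc6a3. Slc29a4 alone of this list was above the threshold, in every line, at 2.58 in AtT20, 2.67 in BV2 and 3.72 in N18. Between N18 and BV2 it differed by 0.46 (adjusted p = 0.0725), and by 1.05 relative to the seminal proteins (adjusted p = 0.00455). In the breakdown list 1 of 10 measured genes was higher and 3 were lower, beside 19.0% and 21.9% of all genes. Ddt, D-dopachrome tautomerase, differed by -1.13 (SE 0.126, adjusted p = 1.73e-06). The values for Slc6a2, Slc6a3 and Slc29a4 were singled out after they were seen.

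Among the genes of acetylcholine synthesis and transport, 3 of 8 were higher in N18 and 3 lower, beside 19.0% and 21.9% of all genes. Acly, which provides cytosolic acetyl-CoA, was 2.11 higher (SE 0.111, adjusted p = 1.54e-10). Slc18a3, the vesicular acetylcholine transporter, whose gene lies within an intron of Chat, was 0.78 higher (SE 0.103, adjusted p = 1.13e-05), with levels of 1.46 in N18, 0.13 in BV2 and 0.03 in AtT20, above the threshold in N18 alone. The direction was opposite to that of Chat in the same comparison. The Chat difference, however, rested on its second probe. It was not called with the median probe (-0.26, adjusted p = 0.319) or without normalization. Chkb, a choline kinase, was 0.77 higher (adjusted p = 7.75e-05), and the choline transporter-like gene Slc44a2 differed by -1.17 (adjusted p = 1.14e-06), a call that did not hold relative to the seminal proteins (-0.52, adjusted p = 0.103). The high-affinity choline transporter Slc5a7 was at -0.23 in N18 and below the threshold in every line. Beside Ache, the other 2 measured genes of acetylcholine breakdown were not called. Bche, the related butyrylcholinesterase, was at -0.24 in N18, and Prima1, the membrane anchor of Ache, at 1.02 in N18, the only line above the threshold, and 0.19 in BV2 (a difference of 0.42, adjusted p = 0.0513). On the seminal protein scale Prima1 was called higher in N18, by 0.82 (adjusted p = 8.33e-06). Slc5a7, Bche and Prima1 were likewise singled out after their values were seen.

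Of the adrenergic and dopamine receptors 1 of 14 was higher and 6 were lower in N18 than in BV2. Of all genes 19.0% were higher and 21.9% lower. The dopamine receptor Drd2 differed by -0.95 (SE 0.129, adjusted p = 1.56e-05), with levels of 0.85 in N18 and 1.61 in BV2. The beta-adrenergic receptor Adrb1 (-0.66, adjusted p = 0.000384) was below the threshold in both lines and was not called with the median of its probes (0.01, adjusted p = 0.969). Among 19 acetylcholine receptor genes 3 were higher and 1 lower, against the same shares of all genes. Chrna3 was 1.14 higher (SE 0.140, adjusted p = 5.35e-06) and Chrnb2 0.86 higher (SE 0.101, adjusted p = 2.97e-06). Both encode subunits of neuronal nicotinic receptors.

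The transcription factors listed for noradrenergic and cholinergic neurons gave 7 of 12 higher and 1 lower in N18 than in BV2. Of all genes 19.0% were higher and 21.9% lower. The median difference of the list was 1.06. Hand2 was 2.80 higher, Isl1 2.37, Phox2a 1.25 and Gata3 0.88 (adjusted p from 2.15e-10 to 7.18e-06). Phox2a, a homeodomain factor known to act on Dbh, was above the threshold in N18 alone, with a level of 2.15 there, 0.20 in BV2 and 0.29 in AtT20. Hand2 was above the threshold in all 3 lines (2.03 in AtT20, 0.59 in BV2 and 4.13 in N18). These factors also served as markers of the line, and whether they bear on the levels of the 9 genes was not tested.

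**Figure D4:**
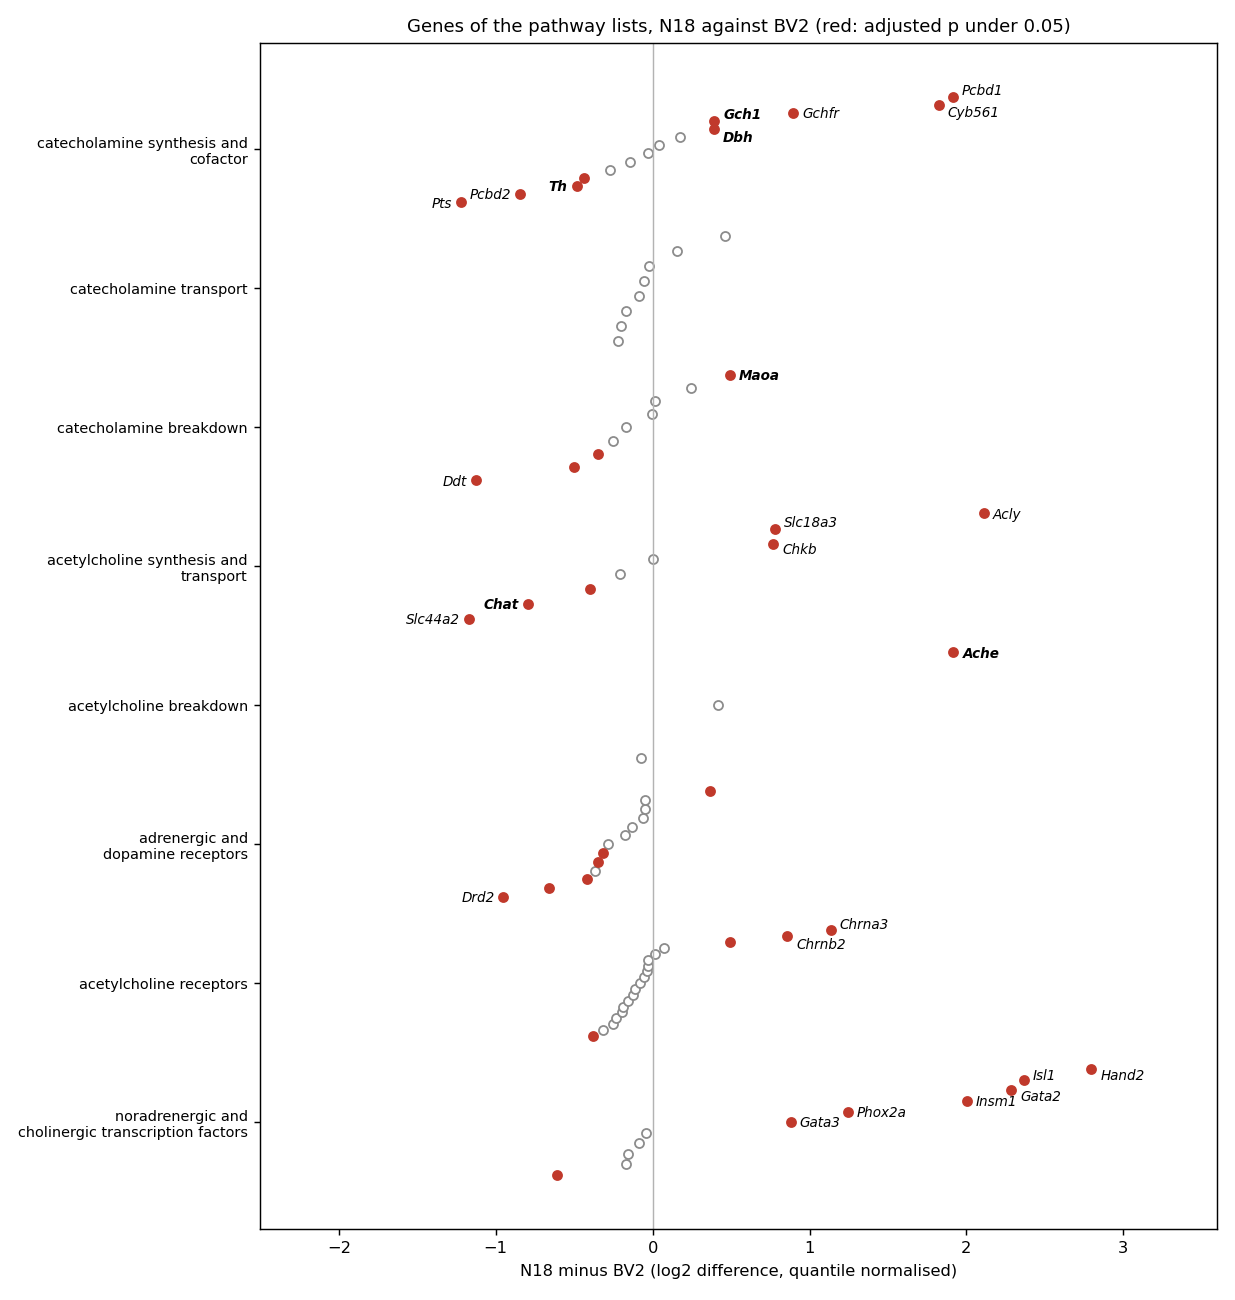
Difference between N18 and BV2 (log2, quantile normalised) for measured genes of the pathway lists, a few left out, each point a gene, red where the adjusted p was under 0.05 and with the 9 genes in bold where called. Points stand apart vertically only for legibility. In the synthesis list called genes lie on both sides of 0, none of the 8 transport genes was called, and the transcription factors shown as called lie to the right except 1.

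Against AtT20, 17 of the 67 other genes were higher and 37 lower in N18, and 17 were higher and 34 lower in BV2, with medians of -0.35 and -0.26. In N18 80.6% were thus called, beside 76.4% of all genes (27.8% higher and 48.6% lower). In BV2 76.1% were, beside 73.6% of all (26.6% higher and 47.0% lower). The balance turned with the scaling: on the seminal protein scale 38 were higher and 12 lower in N18, and 36 higher and 9 lower in BV2, with medians of 0.40 and 0.27. Of all genes called on that scale, 78.8% were higher in N18 and 74.2% higher in BV2. Among the enzymes that clear aldehydes, Akr1b3 was 3.33 higher in N18 and 3.58 higher in BV2 than in AtT20, and Aldh2 3.11 and 3.61 higher (adjusted p at most 9e-12). Both were below the threshold on AtT20 plates, close to the seminal proteins (0.04 and 0.00), so that these values may understate the differences, and above 4 in the other lines (Akr1b3 4.46 in N18 and 4.12 in BV2, Aldh2 4.27 and 4.11). The cofactor-recycling enzyme Qdpr was 1.95 higher in N18 and 2.09 higher in BV2, but 0.78 and 1.03 with the median of the probes. Adra1d (-2.21 and -2.17), Adrb1 (-2.16 and -1.50), Spr (-2.00 and -1.56), Chrna7 (-1.89 and -1.97) and Drd3 (-1.67 and -1.38) were lower in both. They had negative differences on the seminal protein scale too, at -0.93 and -1.04 for Adra1d and -0.53 and -0.35 for Drd3. For Spr in BV2 that difference was not called (-0.30, adjusted p = 0.0635). With the median of the probes Chrna7 was only -0.35 and -0.37, Adrb1 -1.07 and -1.08, and Drd3 -1.14 and -0.77. Adra1d (-2.33 and -2.40) and Spr (-1.96 and -1.63) changed little. Drd2 in N18 (-1.48, adjusted p = 2.7e-08) was -0.06 relative to the seminal proteins. The AtT20 arrays are common to both comparisons.

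Only Ache and Chat had line means that spanned at least 1 on the quantile normalised scale, at 1.92 and 1.43. Over the 12 arrays, with each gene centred on its own mean, the genes nearest to Ache by Euclidean distance were Tmem150c (distance 0.443, r = 0.988) and Hrk (0.511, r = 0.985). The nearest to Chat were the olfactory receptor gene Olfr1410 (0.374, r = 0.991) and Upk2 (0.410, r = 0.984). The 12 arrays fall into 3 lines of 4 plates, so that these correlations mostly describe 3 line means.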

How the data were processed

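RNA of 12 plates was hybridised to NimbleGen arrays with Cy3. The deposited values are log2 intensities, which the authors extracted with NimbleScan and put on the log2 scale, 1 for each of 72000 probes. No background subtraction or normalization between arrays was found. Of 25631 targets, 69.4% were matched to a RefSeq gene symbol, giving 17277 genes and 7851 unnamed targets (25128 in all). Probes were averaged on the linear scale and targets of a gene on the log2 scale. Levels are relative to the 10 seminal protein genes. Pairs of lines were tested by limma 3.58.1 (R 4.3.3; lmFit, then eBayes with a trend) after quantile normalization, with Benjamini-Hochberg adjustment over all 25128. Tested on simulated data for N18 against BV2, the fit recovered 93.0% of 200 genes shifted by 1 (log2) and 29.5% of those shifted by 0.5. Each run shifted only 200 of the 25128, whereas 40.9% were called in the data, and pooled the spread of the 3 lines. These shares therefore need not hold for the real comparison. Tables were made with Python 3.11.15. Named are the 9 genes, at most 15 called genes of the lists per comparison by size of difference, the 2 nearest genes of members whose line means span at least 1, line markers and controls, and a few listed genes are counted but not described individually. Members and lists were chosen with earlier results of these data known. Plates with the same number deviated together with correlations of -0.105 to 0.319, not all above 0.1, and were not treated as paired. Array positions on slides and scan dates are not given in the sources used here, so that slide and line cannot be told apart.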

Additional observations from a re-analysis of the deposited data

How the results depend on the processing

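For N18 against BV2, Ache and Dbh kept their direction and their call under the 18 alternatives that recomputed their difference, and Maoa under 17, being left out where only genes above the threshold were kept. With a difference of at least 1 required, Ache alone stayed called. Of the 9 genes, 6 were called, with 5 to 6 when a plate was left out, 5 with a replicate block, in which Gch1 had an adjusted p of 0.0574, and 1 with a required difference of at least 1. The block changed no other call of the 9 genes. All genes called numbered 10270, with 8758 to 9438 without a plate and 10108 with the replicate block. They were 15554 with only the 8 arrays, 16014 with array quality weights and 2471 with the required difference. For N18 against AtT20, 7 of the 9 (6 to 8 without a plate) and 19192 of all genes (18339 to 19670) became 1 and 7883 with a difference of at least 1. For BV2 against AtT20, 5 of the 9 (4 to 6) and 18495 of all genes (17534 to 19044) were called. Without normalization these became 8 and 21702 (86.4% of all). Among genes above the threshold they were 2 and 13372, and with the required difference 1 and 7102.

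Directions turned in these cases. For N18 against AtT20, relative to the seminal proteins, Th was 0.56, Ddc 0.22, Maoa 0.16 and Chat 0.0063. The median of the probes gave Ddc 0.047, and without normalization Gch1 was -0.012 and Slc18a2 -0.61. For BV2 against AtT20, Th was 0.77 and Chat 0.47 relative to the seminal proteins, Dbh -0.40, Gch1 -0.84 and Slc18a2 -1.01 without normalization, and Gch1 -0.062 and Slc18a2 -0.056 with the median of the probes. Leaving out a plate moved Maob between -0.0080 and 0.0575 for N18 against BV2, and Gch1 between -0.0318 and 0.186 and Slc18a2 between -0.0901 and 0.265 for BV2 against AtT20. The cause was not tested.

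Of the 9 genes above the threshold, AtT20 kept 1 of 3 with the median of the probes and 1 with olfactory receptor genes as controls. BV2 had 4 (4 to 5 without a plate), 2 with the median and 1 with olfactory controls, and N18 had 5, 2 with olfactory controls and 3 with 3 SD. The narrow signal range of the AtT20 plates, probes near background and 4 arrays per line limit the precision.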
